A study of Rattus norvegicus with 18 samples.

Results

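The comparison described here set 6 hypothalamus arrays from rats after Roux-en-Y gastric bypass (RYGB) against 3 hypothalamus arrays from Pair-Fed rats, so it used 9 of the 18 arrays of the series. Members were chosen by the sample labels alone. The bypass arrays were 3 labelled RYGB-Success, from rats that lost weight after the operation, and 3 labelled RYGB-Fail, from rats that gained weight. They were pooled with equal weight, so that a difference from Pair-Fed belongs to both bypass groups only where both groups' own values show it. The Pair-Fed rats were given the amount of food that the treated rats ate. Total RNA was prepared with Qiagen RNeasy, amplified and biotin-labelled with Nugen WT Ovation, and hybridised to 1 array per sample. The other 9 arrays hold abdominal subcutaneous fat from the same 3 groups. The series describes the 3 arrays of each group as biological replicates. The labels used here give no strain, sex, age or time after the operation, and do not say whether the Pair-Fed rats had an operation of any kind.

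The hypothalamus matches feeding to the body's energy stores. Neurons of its lateral area make orexin (Hcrt) and melanin-concentrating hormone (Pmch), peptides that promote feeding and wakefulness or energy storage. Neurons of the paraventricular nucleus make thyrotropin-releasing hormone (Trh), oxytocin (Oxt) and vasopressin (Avp), which act on the pituitary, the kidney and the brainstem. Food shortage raises some of these messages and lowers others, and pair-feeding is the usual way to hold food intake equal between operated and control animals.

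The deposited values were linear MAS5 signals, scaled by the authors to a common mean, and every difference below is on the log2 scale. The median signal of the 9 hypothalamus arrays ranged from 91.1 to 127. The tissue label was borne out by its markers: signal of the neuronal gene Snap25 was 13279 to 25290 here but only 52.0 to 1089 on the fat arrays, and that of the fat cell hormone Adipoq was 86.0 to 410 here but 17271 to 60117 on the fat arrays. The 3' to 5' signal ratio was uneven, at 6.65 to 179 for the actin control and 1.58 to 6.22 for the GAPDH control. Whether RNA integrity differed between the samples was not tested. Both lowest ratios were in RYGB-Success replicate 3. The highest were in Pair-Fed replicate 2 for actin and RYGB-Fail replicate 1 for GAPDH. In correlation, RYGB-Success replicate 3 stood apart most, with a median of 0.904 with the other arrays, against 0.929 to 0.959 for the rest. In tissue arrays of this kind, fewer cells of a type and less RNA per cell cannot be told apart.

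No probe set passed an adjusted p of 0.05 in the pooled comparison (limma with Benjamini-Hochberg adjustment, 0 of 18625, 0%). The lowest adjusted p was 0.312, and 0.639 with the 6 bypass arrays fitted as 1 group. At an unadjusted p under 0.05 there were 1442 probe sets (7.74%), of which 947 (5.08%) had higher and 495 (2.66%) lower signal after bypass. The higher share of those was 65.7%, and it depended on the scaling: quantile normalization gave 55.9%, and centring each array on its median gave 17.7%. Median centring moved the median difference over all probe sets from 0.03 to -0.15. The 6 bypass arrays did not overlap the 3 Pair-Fed arrays at all for 680 probe sets (3.65%), with 456 higher (2.45%) and 224 lower (1.2%). These counts grew when an array was left out, which leaves fewer arrays to overlap. The higher count came to 1003 to 1027 without any 1 of the Pair-Fed arrays, 789 without RYGB-Fail replicate 1 and 723 without RYGB-Fail replicate 2. The lower count came to 545 to 686 without any 1 of the Pair-Fed arrays, 469 without RYGB-Fail replicate 1 and 395 without RYGB-Fail replicate 3. With each array centred on its median, the counts without overlap were 144 higher (0.773%) and 684 lower (3.67%). Whether any of these shares exceeds chance was not tested. All genes named below are therefore given as values and not as changes. Those called named higher or named lower genes were chosen in part for having no overlap, so its presence in them is no result.

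**Figure D1:**
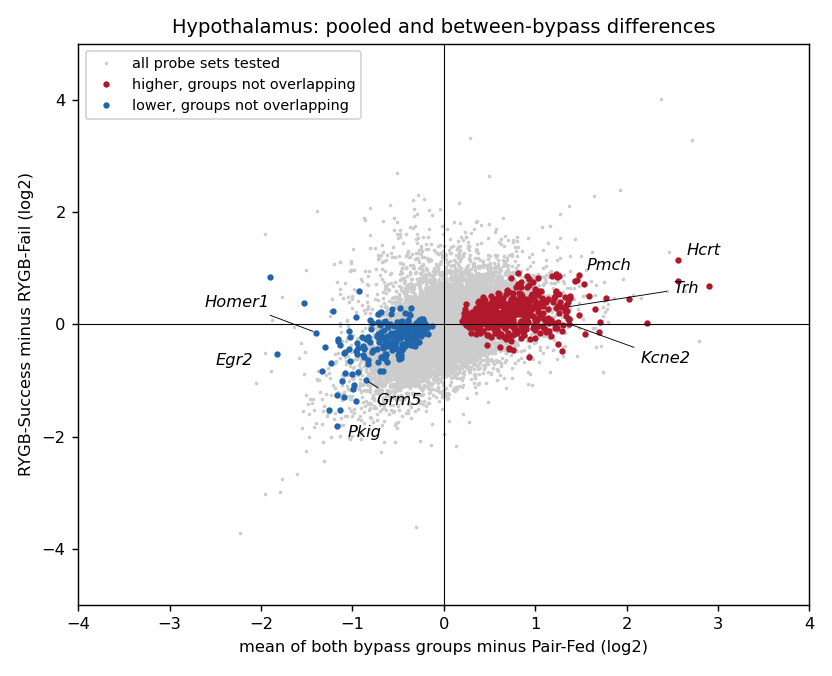
Each point is 1 of the 18625 probe sets. The x axis is the log2 difference of both bypass groups from Pair-Fed and the y axis the log2 difference of RYGB-Success from RYGB-Fail; red and blue points are the 456 higher and 224 lower probe sets whose 6 bypass arrays did not overlap the 3 Pair-Fed arrays. Red points lie mostly above and blue points mostly below the horizontal line, and Pkig is the lowest labelled point.

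Among probe sets without overlap, the median difference from Pair-Fed was larger in size in RYGB-Success than in RYGB-Fail. Probe sets on the same arrays are not independent, so the counts below measure no spread between rats. Among the 456 higher probe sets without overlap, the median difference from Pair-Fed was 0.76 in RYGB-Success and 0.58 in RYGB-Fail. RYGB-Success lay above RYGB-Fail in 364 of them (79.8%), against 51.6% of all probe sets tested. Among the 224 lower ones, the medians were -0.63 in RYGB-Success and -0.40 in RYGB-Fail, and RYGB-Success lay above RYGB-Fail in 32 (14.3%). Per probe set the difference between the bypass groups had an unadjusted p under 0.05 in 18 of the higher (3.95%) and 20 of the lower probe sets (8.93%), against 1120 of all those tested (6.01%). Only 1 probe set in the whole table passed in this test (0.00537%), that for Pkig, described further on. Against Pair-Fed alone, 2 probe sets passed in RYGB-Success (0.0107%) and 0 in RYGB-Fail. Both of these contrasts share the 3 Pair-Fed arrays.

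Orexigenic neuropeptides, which promote feeding, included Hcrt, the peptide precursor with the largest difference among those tested. Of 8 tested precursors on that list, 0 passed, 4 had an unadjusted p under 0.05 with higher signal after bypass, and 3 had no overlap. Over all genes with 1 probe set each, 5.96% had an unadjusted p under 0.05 in that direction and 2.84% had no overlap. The list's median difference was 0.49, against 0.04 for all genes. Hcrt signal, from the precursor of the orexins, was 69.0, 48.0 and 51.7 in Pair-Fed replicates 1, 2 and 3, 644, 271 and 657 in RYGB-Success, and 168, 526 and 121 in RYGB-Fail. Every bypass array thus lay above every Pair-Fed array, and RYGB-Fail replicate 2 lay among the RYGB-Success values. The pooled difference was 2.56 ± 0.43 (SE from the fit of 3 group means, 6 against 3 arrays), or 5.89-fold. Its limma adjusted p was 0.318, and 0.639 with the 6 bypass arrays fitted as 1 group. Its size rests in part on Pair-Fed signals near the lowest mean that entered the test, 52.7, and adding 50 to every signal reduced it to 1.87. RYGB-Success was 3.13 above Pair-Fed and RYGB-Fail 1.99. The difference between them was 1.14 (95% interval 0.08 to 2.20) and did not pass (limma adjusted p = 0.784).

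Pmch, the precursor of melanin-concentrating hormone, is made in the same lateral area by other neurons. Its signal was 4391, 5111 and 2101 in the Pair-Fed arrays, 10581, 9914 and 20005 in RYGB-Success, and 9183, 8492 and 5420 in RYGB-Fail. The groups did not overlap, but RYGB-Fail replicate 3 was only just above Pair-Fed replicate 2. Pooled, the difference was 1.44 ± 0.29 (2.71-fold, limma adjusted p = 0.447), made up of 1.83 in RYGB-Success and 1.05 in RYGB-Fail. Npvf, the precursor of RFamide-related peptides, was at 66.7, 55.5 and 70.2 in Pair-Fed, 225, 163 and 224 in RYGB-Success, and 123, 106 and 108 in RYGB-Fail. Here the 3 groups formed separate bands, with RYGB-Fail between the others and a pooled difference of 1.24 ± 0.29 (limma adjusted p = 0.489). The Success minus Fail difference for Npvf was 0.85 (95% interval 0.13 to 1.56). Gal, the galanin precursor, had a difference of 0.90 ± 0.31 with overlapping groups. Npy, the neuropeptide Y precursor of arcuate neurons that drive feeding, gave 610, 871 and 1280 in Pair-Fed, 1118, 722 and 605 in RYGB-Success, and 985, 658 and 1230 in RYGB-Fail. These ranges coincided, and the difference was -0.04 ± 0.28. Agrp, made by the same arcuate neurons, was not among the array's annotated genes used here.

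The promoters of Hcrt and Trh are shown because these precursors, one of each feeding class, had groups without overlap. Each sequence is the 250 bases before the annotated start, from RefSeq (GRCr8), read 5′ to 3′ on the gene's own strand, at chr10:86191525-86191774 for Hcrt and chr4:126301763-126302012 for Trh, both on the minus strand. Capitals mark a half-site of the cAMP response element, searched as TGACG on both strands.
Hcrt: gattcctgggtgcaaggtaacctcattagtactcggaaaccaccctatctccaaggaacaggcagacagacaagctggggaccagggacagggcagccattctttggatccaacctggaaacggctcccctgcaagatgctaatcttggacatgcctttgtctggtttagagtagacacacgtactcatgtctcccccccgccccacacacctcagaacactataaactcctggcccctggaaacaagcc
Trh: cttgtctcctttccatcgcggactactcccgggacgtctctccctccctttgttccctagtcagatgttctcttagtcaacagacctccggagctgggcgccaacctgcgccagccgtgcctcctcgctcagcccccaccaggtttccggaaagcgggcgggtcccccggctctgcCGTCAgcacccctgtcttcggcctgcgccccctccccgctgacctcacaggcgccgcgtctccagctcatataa
The Hcrt window held no half-site and the Trh window 1. Over 33469 promoters of the same length, 18.2% held at least 1. Promoters were found for 10 of the 14 named higher genes, and Trh was the only one of these with a half-site. A match is a run of letters and not a measured binding site.

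Of 12 anorexigenic peptides tested, which restrain feeding, 9 had differences above 0, against 5771 of all 10438 genes. None passed, 3 had an unadjusted p under 0.05 with higher signal and 1, Trh, had no overlap, against 5.96% and 2.84% of all genes. This list's median difference was 0.20, and 0.39 without Pair-Fed replicate 1. Quantile normalization gave 0.08 and median centring 0.03, against 0.01 and -0.13 for all genes. Trh, whose product starts the thyroid axis and also restrains feeding, was at 201, 275 and 141 in Pair-Fed, 813, 369 and 565 in RYGB-Success, and 498, 551 and 326 in RYGB-Fail. All bypass arrays were above all Pair-Fed arrays and the 2 bypass groups overlapped. The pooled difference was 1.33 ± 0.30 (2.51-fold, limma adjusted p = 0.489), with 1.48 in RYGB-Success, 1.18 in RYGB-Fail and a 95% interval of -0.43 to 1.04 for the difference between them. Cartpt, the precursor of the satiety peptide CART, differed by 0.94 ± 0.35 and Cck, the cholecystokinin precursor, by 0.64 ± 0.28, both with overlapping groups. Crh, the corticotropin-releasing hormone that starts the stress axis, differed by 0.42 ± 0.27 (limma adjusted p = 0.736), and by 0.20 without Pair-Fed replicate 3. Pomc, the precursor of alpha-MSH, was below the signal filter and was not tested.

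The neurosecretory hormones, released from nerve endings into blood, had the largest median of the pathway lists, 1.02 over 7 tested genes. Of these genes, 3 had an unadjusted p under 0.05 with higher signal and 1, again Trh, had no overlap, against 5.96% and 2.84% of all genes. The list's median came to 0.59 without Pair-Fed replicate 2. Oxt signal was 360, 2070 and 1664 in Pair-Fed, 5588, 1802 and 4906 in RYGB-Success, and 3974, 3424 and 1269 in RYGB-Fail. The lowest Pair-Fed array lay far below the others, and RYGB-Success replicate 2 and RYGB-Fail replicate 3 lay among the Pair-Fed values. The pooled difference of 1.52 ± 0.52 (limma adjusted p = 0.577) came to 0.73 without Pair-Fed replicate 1. Avp, at 485, 1410 and 1028 in Pair-Fed, spanned 1232 to 4851 in RYGB-Success and 1166 to 2670 in RYGB-Fail, with a difference of 1.17 ± 0.41 that came to 0.74 without Pair-Fed replicate 1. Both Oxt and Avp therefore overlapped between the groups. Sst, the somatostatin precursor, differed by 0.17 ± 0.33. Vip, a peptide of the suprachiasmatic clock nucleus, was at 536, 391 and 576 in Pair-Fed, 1032, 764 and 910 in RYGB-Success, and 682, 800 and 769 in RYGB-Fail. Its groups did not overlap, with a difference of 0.73 ± 0.20 (limma adjusted p = 0.550).

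**Figure D2:**
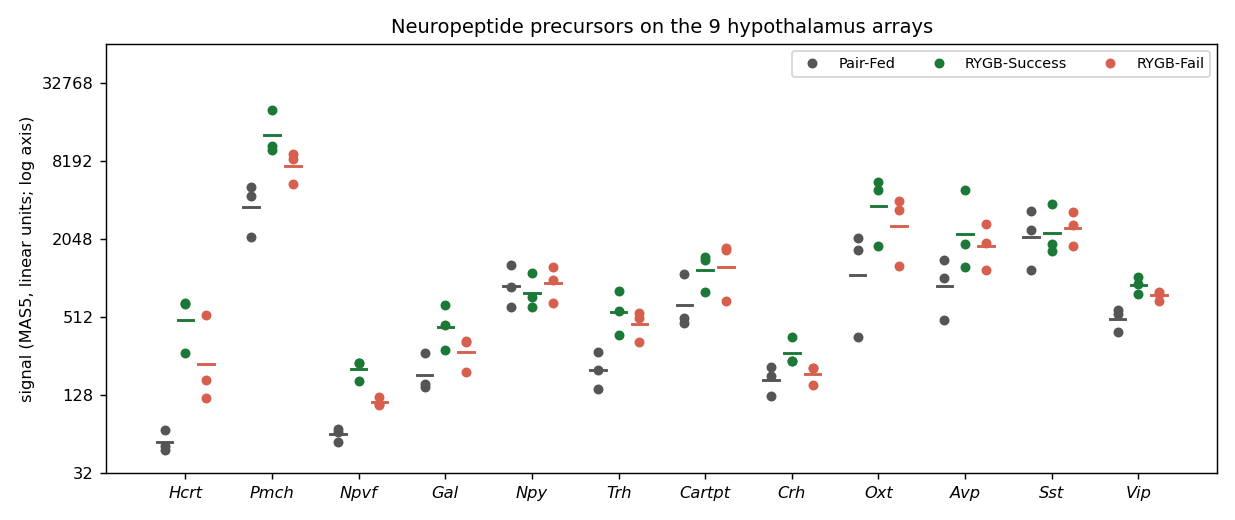
Signal of 12 neuropeptide precursors on the 9 hypothalamus arrays (log axis); points are arrays, coloured by group, and horizontal lines are the group means of log2 signal. For Hcrt, Pmch, Npvf, Trh and Vip all 6 bypass arrays lie above the 3 Pair-Fed arrays, while Npy and Sst have coinciding ranges.

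Markers of brain regions differed between the same arrays. The mean log2 signal over all 16 hypothalamic markers on the array was 6.29 to 6.71 in Pair-Fed, 7.05 to 7.45 in RYGB-Success and 6.90 to 7.96 in RYGB-Fail, but the list includes Hcrt, Pmch, Trh, Oxt and Avp themselves. The 4 other markers tested, chosen for mention after their values were seen, were transcription factors of the developing hypothalamus: Sim1 differed by 0.82, Dlx1 by 0.26, Nkx2-1 by 0.25 and Nkx2-2 by 0.11. Striatal, cortical and hippocampal markers lay mostly the other way. All 11 striatal markers had differences below 0, with a median of -0.68, but 2 had an unadjusted p under 0.05 and 0 had no overlap. In that direction the shares of all genes were 2.49% and 1.18%. The striatal median came to -0.35 without Pair-Fed replicate 2 and -0.30 without RYGB-Fail replicate 2. Their mean log2 signal was 10.1 to 10.9 in Pair-Fed, 8.98 to 10.1 in RYGB-Success and 8.80 to 10.9 in RYGB-Fail. Of 9 tested cortical and hippocampal markers, 8 were below 0. An unadjusted p under 0.05 with lower signal was found for 3, and 0 had no overlap, against the same shares of all genes. Their median was -0.55, with levels of 7.02 to 7.72 in Pair-Fed and 6.43 to 7.64 over the bypass arrays. Of the thalamic markers, 8 of 10 tested lay above 0, with a median of 0.37 and levels of 9.48 to 10.1 in Pair-Fed and 9.74 to 10.5 over the bypass arrays. The striatal gene Bcl11b was at 4285, 5465 and 4625 in Pair-Fed, 2915, 2357 and 938 in RYGB-Success, and 4634, 1864 and 4286 in RYGB-Fail. RYGB-Success replicates 2 and 3 and RYGB-Fail replicate 2 were lowest, while RYGB-Fail replicates 1 and 3 were within the Pair-Fed range. The part of the sampled region in the peptide values was not tested.

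**Figure D3:**
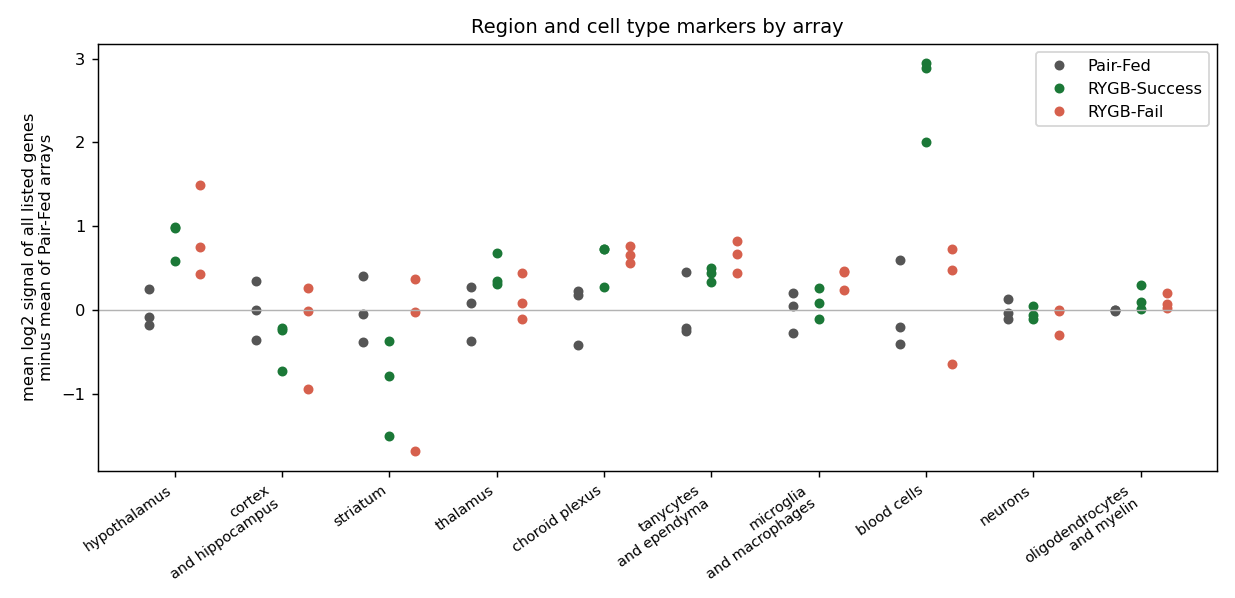
Mean log2 signal over all listed markers on the array for 10 regions or cell types, with the mean of the 3 Pair-Fed arrays set to 0; each point is 1 array. Hypothalamic and choroid plexus markers lie above 0 in the 6 bypass arrays, striatal markers lie lowest in RYGB-Fail replicate 2 and RYGB-Success replicate 3, and blood cell markers are high in the 3 RYGB-Success arrays.

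Receptors for appetite and energy signals gave a mixed picture. Of 18 tested, 0 passed, 2 had an unadjusted p under 0.05 with higher and 1 with lower signal, and the median difference was 0.28. For all genes the shares at that p were 5.96% and 2.49%, and the median was 0.04. Adipor2, a receptor for the fat cell hormone adiponectin, was at 385, 396 and 256 in Pair-Fed, 617, 577 and 991 in RYGB-Success, and 438, 599 and 695 in RYGB-Fail. No bypass array reached down to the Pair-Fed values, and the difference was 0.90 ± 0.25 (1.87-fold, limma adjusted p = 0.550). Ntsr1, a neurotensin receptor, had no overlap either, but its Pair-Fed signals of 25.1, 33.5 and 46.0 lay below the lowest tested mean of 52.7, so the bypass mean was at least 1.46-fold higher against that level. Cnr1, the cannabinoid receptor through which endocannabinoids promote feeding, was at 2236, 1890 and 2074 in Pair-Fed, 1309, 1019 and 770 in RYGB-Success, and 1126, 1267 and 2055 in RYGB-Fail. Only RYGB-Fail replicate 3 reached the Pair-Fed range, and the difference was -0.78 ± 0.23 (limma adjusted p = 0.554). The leptin receptor Lepr (-0.27 ± 0.52), the melanocortin receptor Mc4r (-0.45 ± 0.48) and the insulin receptor Insr (0.44 ± 0.36) had errors as large as or close to their differences. The ghrelin receptor Ghsr and the leptin feedback gene Socs3 were below the signal filter.

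Immediate early genes, which neurons transcribe within minutes of stimulation, lay below Pair-Fed in most cases. Of 23 tested, 16 had differences below 0 and the median was -0.37. The median came to -0.20 without RYGB-Success replicate 1 and -0.24 without Pair-Fed replicate 3. None passed, 6 had an unadjusted p under 0.05 with lower signal and 3 had no overlap, against 2.49% and 1.18% of all genes in that direction. Egr2, a zinc finger transcription factor, was at 1085, 1581 and 1377 in Pair-Fed, 276, 324 and 340 in RYGB-Success, and 854, 192 and 555 in RYGB-Fail. The RYGB-Success arrays were close together and the RYGB-Fail arrays scattered around them, all below Pair-Fed. The pooled difference was -1.83 ± 0.36 (3.55-fold lower, limma adjusted p = 0.447), with -2.09 in RYGB-Success and -1.57 in RYGB-Fail (95% interval of the difference between them -1.41 to 0.36). Ier5, another early response gene, was at 677, 876 and 1291 in Pair-Fed, 476, 375 and 314 in RYGB-Success, and 615, 382 and 590 in RYGB-Fail. It had no overlap and a difference of -1.04 ± 0.25 (limma adjusted p = 0.550).

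Egr1, named here after its values were seen as the third of these genes without overlap, was at 9879, 11033 and 12379 in Pair-Fed, 5629, 5613 and 8953 in RYGB-Success, and 9426, 5017 and 7914 in RYGB-Fail. Its difference of -0.68 ± 0.21 was near-equal in RYGB-Success (-0.75) and RYGB-Fail (-0.62). Nr4a3, an orphan nuclear receptor, had a difference of -1.11 ± 0.26 in which only RYGB-Fail replicate 3, at 2823, reached above the lowest Pair-Fed array, at 2170. Fos, the usual marker of recent neuronal activity, was at 1112, 1105 and 1347 in Pair-Fed, 444, 663 and 1714 in RYGB-Success, and 1021, 1096 and 551 in RYGB-Fail. RYGB-Success replicate 3 was the highest of all 9 arrays, and the difference was -0.52 ± 0.35 (limma adjusted p = 0.742). It came to -0.31 without RYGB-Success replicate 1 and -0.80 without RYGB-Success replicate 3. Several of these genes, Egr2 among them, are strongly expressed in striatum or cortex, whose markers were lower in some bypass arrays as given above, and the part of that in these values was not tested.

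The Egr2 promoter is shown because Egr2 had the largest lower difference of the named genes. It is the 250 bases before the annotated start (RefSeq, GRCr8, chr20:21054442-21054691, minus strand), with a CArG box, the site of serum response factor, and a cAMP response element half-site in capitals.
Egr2: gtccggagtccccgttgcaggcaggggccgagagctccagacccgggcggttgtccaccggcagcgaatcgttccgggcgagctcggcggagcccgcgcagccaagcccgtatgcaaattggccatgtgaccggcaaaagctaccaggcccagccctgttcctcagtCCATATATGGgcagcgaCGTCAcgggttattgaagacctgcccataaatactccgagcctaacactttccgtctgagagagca
Among all 33469 promoters 1.5% held a CArG box and 1.59% the full element TGACGTCA, which contains the half-site on both strands. Of 23 immediate early genes with a promoter in the table, 3 held a CArG box (Egr1, Egr2 and Klf6), 12 a half-site and 4 the full element. Among 11 named lower genes with a promoter, Egr2 and Ccsap held a half-site and Egr2 a CArG box. These shares describe the sequences and not the arrays.

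Genes of the glutamate synapse were below Pair-Fed in 19 of 31 cases. Of these receptors and postsynaptic scaffolds, 0 passed, 6 had an unadjusted p under 0.05 with lower and 1 with higher signal, and 4 had no overlap below Pair-Fed. The shares over all genes at that p were 2.49% lower and 5.96% higher, and 1.18% had no overlap below Pair-Fed. The list's median was -0.15, against 0.04 for all genes. Grm5, the metabotropic receptor mGluR5, was at 6285, 7585 and 8363 in Pair-Fed, 4430, 2685 and 2012 in RYGB-Success, and 6162, 4936 and 6188 in RYGB-Fail. RYGB-Fail replicates 1 and 3 lay just below the lowest Pair-Fed array, and RYGB-Fail replicate 2 was nearer to RYGB-Success replicate 1. The pooled difference was -0.86 ± 0.22 (limma adjusted p = 0.550), with -1.35 in RYGB-Success and -0.36 in RYGB-Fail. The difference between the bypass groups had a 95% interval of -1.53 to -0.45 but did not pass (limma adjusted p = 0.784). Shank2, a scaffold that ties receptors to the postsynaptic skeleton, was at 1948, 2012 and 1816 in Pair-Fed, 1079, 1057 and 1213 in RYGB-Success, and 1469, 1014 and 1436 in RYGB-Fail. Its difference of -0.68 ± 0.18 was made up of -0.79 in RYGB-Success and -0.58 in RYGB-Fail, and its Pair-Fed arrays were close together. The other Shank2 probe set gave -0.14 ± 0.62.

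Homer1 joins mGluR5 to those scaffolds, and its short form is made as an immediate early transcript. The named probe set read 200, 333 and 461 in Pair-Fed, 151, 120 and 79.6 in RYGB-Success, and 156, 65.1 and 194 in RYGB-Fail. All bypass arrays were below Pair-Fed, though RYGB-Fail replicate 3 only just. The difference was -1.39 ± 0.38 (2.63-fold lower). The other 3 Homer1 probe sets gave -1.39, -0.47 and -0.30, at mean signals of 745, 2321 and 270. Which probe sets read which form was not tested. Gria3, an AMPA receptor subunit, differed by -0.52 ± 0.17 with overlap in 1 array. Chn1, a Rac-regulating protein of dendrites, was at 7571, 7963 and 8326 in Pair-Fed, 3587, 4823 and 2696 in RYGB-Success, and 5137, 4984 and 6704 in RYGB-Fail. Its difference was -0.83 ± 0.19 (limma adjusted p = 0.489), with -1.14 in RYGB-Success and -0.52 in RYGB-Fail. Of 24 voltage-gated ion channels tested, 0 had an unadjusted p under 0.05 with higher signal, against 5.96% of all genes. With lower signal there were 4, against 2.49% of all genes. Among those 4, Kcnh1, a potassium channel, lay at 301, 309 and 337 in Pair-Fed and at 119 to 252 over the bypass arrays, a difference of -0.95 ± 0.27. As with the early genes, striatal and cortical marker levels were lower in several of the same arrays.

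Pkig, a protein inhibitor of the cAMP-dependent protein kinase, had the lowest p of the pooled comparison but was not shared by the bypass groups. It was at 8352, 10095 and 9360 in Pair-Fed, 1986, 3074 and 1734 in RYGB-Success, and 8261, 7193 and 7655 in RYGB-Fail. The RYGB-Fail arrays lay just under the Pair-Fed arrays, and the RYGB-Success arrays were the only low ones. The pooled difference of -1.17 ± 0.18 (limma adjusted p = 0.312) joined -2.07 in RYGB-Success, which passed against Pair-Fed alone (limma adjusted p = 0.00223), and -0.26 in RYGB-Fail. RYGB-Success was 1.81 lower than RYGB-Fail on the log2 scale, at -1.81 (95% interval -2.26 to -1.36, limma adjusted p = 0.0116). That call was lost without any 1 of the RYGB-Fail arrays, and 2 probe sets passed without Pair-Fed replicate 1 and 6 without RYGB-Success replicate 2. The pooled Pkig difference itself passed without RYGB-Success replicate 2, at a limma adjusted p of 0.0206, and with arrays median-centred or weighted. With the 6 bypass arrays fitted as 1 group, its limma adjusted p was 0.661. The other probe set that passed in RYGB-Success against Pair-Fed was for the lipoxygenase Alox15, at 1453, 456 and 1554 in RYGB-Success and 34.2 to 96.1 in Pair-Fed. Its RYGB-Fail arrays, at 30.4 to 101, coincided with Pair-Fed.

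Among 33 tested genes of protein kinase A and cAMP signalling, the median difference was 0.00 and 1 higher and 4 lower genes had an unadjusted p under 0.05. Of all genes, 5.96% were higher and 2.49% lower at that p. Pde1a, a calmodulin-dependent phosphodiesterase, was at 224, 146 and 187 in Pair-Fed, 93.4, 56.0 and 119 in RYGB-Success, and 78.6, 72.3 and 141 in RYGB-Fail. Its difference of -1.04 ± 0.35 had no overlap and near-equal parts in the 2 bypass groups, -1.10 and -0.98. Pde1c, another calmodulin-dependent phosphodiesterase, had its Pair-Fed arrays at 18.7 to 52.6, below the lowest tested mean of 52.7, and was at least 2.04-fold higher in the bypass mean against that level, with overlapping groups.

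Several of the named higher genes belong to the choroid plexus, the tissue that makes cerebrospinal fluid, or to the barriers of the brain. Kcne2, a potassium channel subunit of choroid plexus cells, was at 136, 121 and 69.3 in Pair-Fed, 225, 234 and 377 in RYGB-Success, and 337, 261 and 221 in RYGB-Fail. The bypass groups coincided above Pair-Fed, with a difference of 1.37 ± 0.29 (2.58-fold, limma adjusted p = 0.489) made of 1.37 and 1.36. A second Kcne2 probe set gave 1.29. Slco1a5, an organic anion transporter, was at 132, 127 and 68.8 in Pair-Fed, 261, 418 and 489 in RYGB-Success, and 242, 242 and 316 in RYGB-Fail, a difference of 1.59 ± 0.29 (limma adjusted p = 0.318) with no overlap. Mfrp, a membrane protein related to frizzled receptors, differed by 1.25 ± 0.28 and was the 1 named higher gene with more signal in RYGB-Fail (1.42) than in RYGB-Success (1.07). Of 11 choroid plexus markers tested, 10 had differences above 0, 5 had an unadjusted p under 0.05 and 3 had no overlap, with a median of 0.59. Across all genes, 5.96% were higher at that p, 2.84% had no overlap above Pair-Fed and the median was 0.04. Ttr, the thyroid hormone carrier of the choroid plexus, was at 10858, 13420 and 8234 in Pair-Fed, 13120, 20677 and 15085 in RYGB-Success, and 18688, 14310 and 15022 in RYGB-Fail. Only RYGB-Success replicate 1 reached the Pair-Fed range, and the difference was 0.59 ± 0.18. Mean marker level of the choroid plexus was 7.74 to 8.38 in Pair-Fed and 8.43 to 8.92 over the bypass arrays. That list includes Kcne2 itself, and the part of the choroid plexus in the values of Kcne2, Slco1a5 and Mfrp was not tested.

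The remaining named higher genes have assorted roles. Ces5a, a carboxylesterase, was at 134, 97.6 and 81.2 in Pair-Fed, 368, 327 and 414 in RYGB-Success, and 277, 193 and 181 in RYGB-Fail, again 3 separate bands. Its difference was 1.46 ± 0.26 (limma adjusted p = 0.318). Dbndd1 differed by 1.10, Nt5dc2 by 1.04, the sulfatase Arsg by 0.93, the RNA-binding protein Csdc2 by 0.99 and the membrane protein Tmem176a by 0.99. Fzr1, an activator of the anaphase-promoting complex, differed by 1.21 on the named probe set and by 0.05 on its other one. Ccl6, a chemokine of myeloid cells, was at 60.2, 92.2 and 102 in Pair-Fed, 225, 255 and 544 in RYGB-Success, and 169, 235 and 124 in RYGB-Fail. All its bypass arrays were above Pair-Fed, with a difference of 1.48 ± 0.34.

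On the lower side, Ube3d, a ubiquitin ligase, differed by -1.09, Zdhhc23, a palmitoyltransferase, by -1.03, Ccsap, a microtubule-associated protein of centrioles, by -0.88 and Utp4, a ribosome assembly factor, by -0.83. For 3 further genes the probe sets gave values far apart. Slc25a27, a mitochondrial carrier of brain, gave -1.23 on the named probe set and 0.32 and 0.10 on the others. Those others had mean signals of 70.9 and 1220, and the named probe set read 76.3 to 359. Cobl, an actin nucleator, gave -1.12 and 0.91, and Smarca4, an ATPase of chromatin remodelling, gave -0.88 and -0.16. The second probe sets of Cobl and Smarca4 had mean signals of 66.4 and 178. Over all 28 named genes the adjusted p of the pooled limma test was between 0.312 and 0.550. The 95% interval of the Success minus Fail difference spanned 0 in 8 of the 14 higher and 8 of the 14 lower genes. The other 6 in each direction had an unadjusted p under 0.05, against 6.01% of all probe sets tested. Of the 28 genes, only Pkig passed that test after adjustment.

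**Figure D4:**
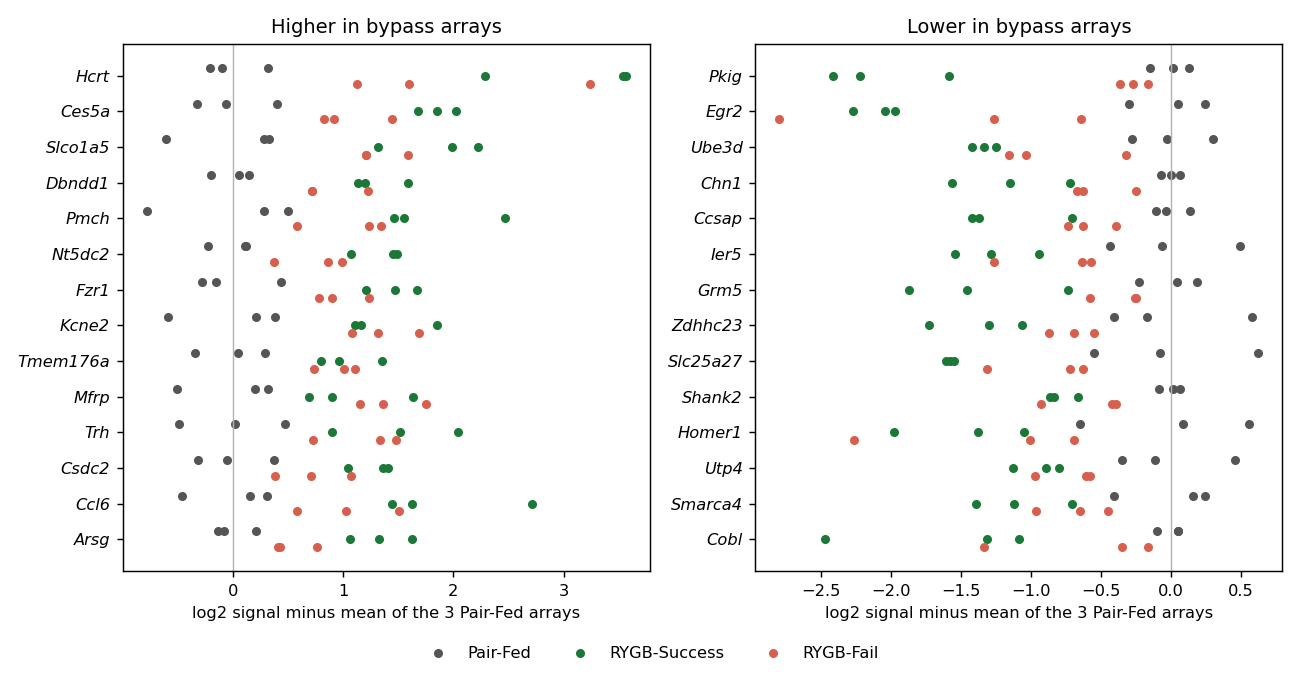
Log2 signal of the 28 named genes on each hypothalamus array, as the difference from the mean of the 3 Pair-Fed arrays; each point is 1 array, and colours give the group. The rule that chose the genes places the 6 bypass arrays on 1 side of the 3 Pair-Fed arrays in each of them. No gene passed an adjusted p of 0.05, and for Pkig the RYGB-Fail arrays lie next to Pair-Fed.

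Glial and immune markers differed in part. Of 14 tested markers of microglia and macrophages, the resident immune cells of the brain, 6 had an unadjusted p under 0.05 with higher signal and 3 had no overlap. All genes had shares of 5.96% and 2.84%. The markers' median was 0.43, and 0.39 to 0.66 when an array was left out, highest without Pair-Fed replicate 2. Median centring gave 0.26, against -0.13 for all genes. Lyz2, a lysozyme of myeloid cells, was at 683, 837 and 635 in Pair-Fed, 1123, 1126 and 1631 in RYGB-Success, and 1071, 1276 and 860 in RYGB-Fail. The complement genes C1qa and C1qb likewise had no overlap, with differences of 0.66 ± 0.21 and 0.76 ± 0.27. Mean marker level over all 17 genes on the array overlapped, at 7.01 to 7.49 in Pair-Fed and 7.17 to 7.74 over the bypass arrays. Astrocyte (-0.01), oligodendrocyte (0.10) and neuron (-0.02) markers had medians near the 0.04 of all genes. Even so, 3 of 12 astrocyte and 2 of 15 oligodendrocyte markers had an unadjusted p under 0.05 with higher signal, against 0 of 12 neuron markers. Without overlap above Pair-Fed were 1 astrocyte, 2 oligodendrocyte and 0 neuron markers. Gfap differed by -0.06 ± 0.22 and Mbp by -0.11 ± 0.17. Blood cell markers were high in RYGB-Success: Alas2, an enzyme of heme synthesis, was at 382, 279 and 385 in RYGB-Success, 49.1 to 113 in RYGB-Fail and 22.5 to 88.7 in Pair-Fed. The mean level over 6 blood cell markers was 8.01 to 8.95 in RYGB-Success, against 5.37 to 6.74 in RYGB-Fail and 5.60 to 6.61 in Pair-Fed. Alox15, which some blood and myeloid cells express, was highest in the same 3 arrays. Ccl6 was highest in RYGB-Success replicates 2 and 3. The part of blood in those values was not tested.

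Metabolic and protein-making genes had small median differences. Of 25 antioxidant and NRF2 target genes, 20 lay above 0, 7 had an unadjusted p under 0.05 and 3 had no overlap, with a median of 0.24. The shares of all genes at that p were 5.96% higher and 2.49% lower, and 2.84% had no overlap above Pair-Fed. Gpx1, a glutathione peroxidase, was at 712, 806 and 633 in Pair-Fed, 1263, 1420 and 1338 in RYGB-Success, and 1485, 1014 and 944 in RYGB-Fail, a difference of 0.78 ± 0.20 (limma adjusted p = 0.550). Sod3, the extracellular superoxide dismutase, had no overlap either, at 0.71 ± 0.26. Mt1, a metallothionein, differed by 1.25 ± 0.41 with overlap, and by 0.50 without Pair-Fed replicate 1, its lowest array. Respiratory chain genes had a median of 0.17 over 47 tested, with 7 at an unadjusted p under 0.05, and cytosolic ribosomal protein genes 0.16 over 29, with 6. Centring arrays on their medians moved both lists to -0.01 and the median of all genes from 0.04 to -0.13, while quantile normalization gave 0.18 and 0.19. The ribosomal median came to 0.07 without RYGB-Fail replicate 1. Ndufa1, a subunit of complex I, was the largest of the first list without overlap, at 0.79 ± 0.21. Chromatin and transcription cofactors had a median of -0.20 over 24 genes, with 1 at an unadjusted p under 0.05, and splicing and RNA-binding proteins -0.12 over 33. Those medians came to -0.13 without Pair-Fed replicate 2 and -0.07 without Pair-Fed replicate 1.

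**Figure D5:**
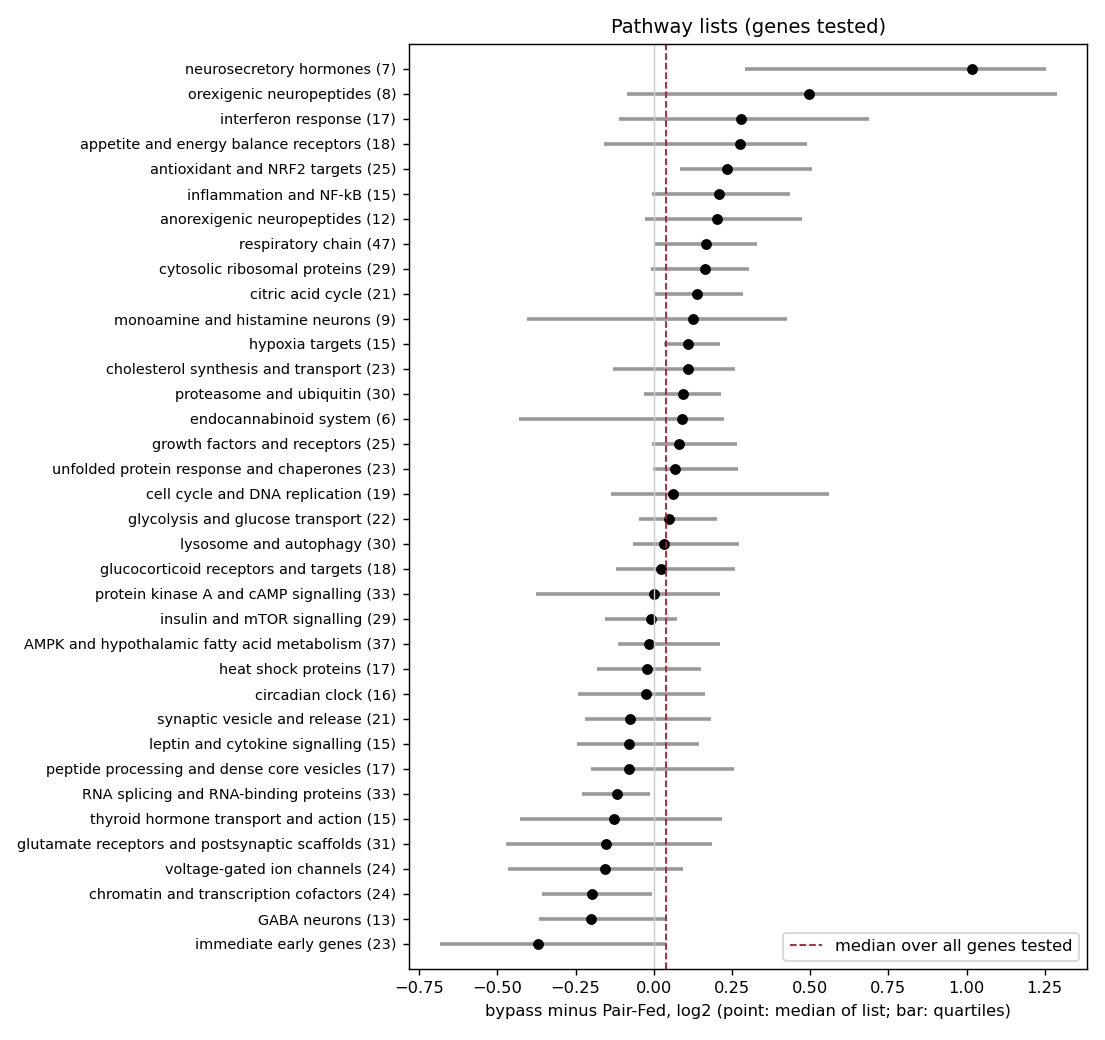
Median (point) and quartiles (bar) of the log2 difference between bypass and Pair-Fed over the tested genes of 36 pathway lists, with the number tested in brackets; the dashed line is the median over all genes, 0.04. Neurosecretory hormones (1.02) and orexigenic neuropeptides (0.49) lie farthest right and immediate early genes (-0.37) farthest left.

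The same contrast was set against fat to see whether any difference belonged to the hypothalamus. Over the 15531 probe sets above the signal filter in both tissues, 0 had a difference between tissues that passed (limma, 811 at an unadjusted p under 0.05, 5.22%). Of the named genes, 5 higher and 14 lower ones could be tested, with adjusted p-values of 0.630 to 0.864 and 0.834 to 0.994. Hcrt, Pmch, Trh, Kcne2 and the other named higher genes that did not enter this test had signals below the filter in fat. No difference was therefore shown to be particular to the hypothalamus.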

How the data were processed

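RNA from 9 hypothalamus and 9 fat samples was measured on 1 array each. The deposited values were linear signal intensities per probe set, made by the authors with MAS5 in GCOS, per the submitters' processing notes; versions are not given in the sources used here. Their mean after removing the top and bottom 2% was 500.13 to 500.2 on every array, so all were scaled to a common mean. Signals were taken to log2, 57 control probe sets removed, and the upper 60% by mean signal over the 9 arrays kept (18625 of 31042 probe sets, 10438 genes). Probe sets were named from the platform annotation: 20826 had 1 gene symbol, 436 several and 9780 none, and 20758 matched RefSeq by gene ID.

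Differences were tested by a linear model of 3 group means in limma 3.58.1 (R 4.3.3), whose eBayes step used a mean-variance trend, 2-sided, with Benjamini-Hochberg adjustment over all probe sets tested at 0.05. The pooled contrast was the mean of both bypass groups minus Pair-Fed; Success minus Fail came from the same fit, and the tissue difference from a fit of all 18 arrays. The script was tested on simulated data. Named genes were those with 1 symbol, no overlap between the 6 and 3 arrays and a fold of at least 1.5, 14 in each direction by lowest p since none passed, plus up to 3 members of lowest p of each list described and 25 genes of known interest. A gene in 51 lists was represented by its brightest probe set. Members and lists were chosen with earlier results of these data known. With 3 arrays a group, the number of arrays limits the precision. Alternatives covered the pseudocount, the filter, scaling, array weights, the replicate number as a block, the model of spread, and leaving out each array.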

Additional observations from a re-analysis of the deposited data

Results flagged for a closer look

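Pkig differed between the bypass groups: RYGB-Success minus RYGB-Fail was -1.81 on the log2 scale, the 1 probe set of 18625 that passed that test (limma adjusted p = 0.0116).

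Over 45 named and anchor genes, 3 (6.67%) had 1 bypass array far from the other 5, where chance alone gives about 1 in 20. Ube3d was at 908 in RYGB-Fail replicate 3, with the next array at 554. Th, the dopamine-synthesis enzyme, was at 3.53 in RYGB-Fail replicate 1, with the next at 132. Gfap was at 1414 in RYGB-Success replicate 3, with the next at 2514.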

How the results depend on the processing

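The count of probe sets passing in the pooled comparison was 0 and became 1, Pkig in each case, with median centring and with array weights, and ranged from 0 to 1 when arrays were left out. Higher probe sets without overlap numbered 456 (2.45%). There were 723 of 31042 with no filter (2.33%) and 280 of 12417 with the upper 40% filter (2.25%). Median centring gave 144 (0.773%), and leaving out an array gave 519 to 1027 (2.79% to 5.51%). Lower probe sets without overlap numbered 224 (1.2%), and 684 (3.67%) with median centring. They numbered 258 to 686 (1.39% to 3.68%) when an array was left out. Success against Fail gave 1, and 2 with log2(signal + 50), with no filter, with quantile normalization and with median centring, 6 with array weights, and 0 to 6 when an array was left out. The tissue difference gave 0, 1 with array weights, and 0 to 3 when an array was left out (3 without fat RYGB-Fail replicate 3). The cause of these shifts was not tested, other than the fewer arrays or probe sets that a setting leaves. With the replicate number as a block, the pooled count was 0, Success against Fail gave 2 and the tissue difference 0; the block changed no other call. Same-numbered arrays deviated with correlations of -0.16 to 0.07, so the numbers were not taken as pairs. Of the recomputed values of named and anchor genes, 829 kept their side of the threshold within the replicate spread, 3 (Pkig) newly passed and 16 moved beyond that spread. Of the recomputed list medians, 588 stayed within the replicate spread and 24 moved beyond it. Holding low signals at 52.7 was chosen after seeing the data and left 434 higher and 224 lower probe sets without overlap. The 3 arrays of each group and low signals near 52.7 limit what could be found.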

Other observations

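Other lists held single genes without overlap. Ifitm3, an interferon-induced membrane protein, was at 241, 150 and 268 in Pair-Fed, 515, 420 and 546 in RYGB-Success, and 331, 598 and 284 in RYGB-Fail, with every bypass array above Pair-Fed and a difference of 1.02 ± 0.28 (limma adjusted p = 0.550). The median of 17 interferon response genes was 0.28, with 2 higher at an unadjusted p under 0.05, against 5.96% of all genes. That median came to 0.06 without Pair-Fed replicate 2 and 0.12 with quantile normalization. Vegfa, the vascular growth factor, was at 640, 593 and 485 in Pair-Fed, 1018, 1387 and 937 in RYGB-Success, and 924, 905 and 751 in RYGB-Fail, a difference of 0.77 ± 0.20 on the log2 scale without overlap. The median of 15 hypoxia targets was 0.11, and 0.23 without Pair-Fed replicate 2. Ppard, a nuclear receptor for fatty acids, differed by 0.68 ± 0.19, with RYGB-Success at 875 to 1152, RYGB-Fail at 672 to 949 and Pair-Fed at 520 to 585. Its list of 37 genes of AMPK and fatty acid metabolism had a median of -0.01.

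Plcb1, a phospholipase upstream of endocannabinoid synthesis, was lower without overlap, at 1826 to 2273 in Pair-Fed and 1144 to 1697 over the bypass arrays, a difference of -0.58 ± 0.18. The clock gene Per2 differed by -0.72 ± 0.28 with overlap, and the 16 clock genes tested had a median of -0.03. Sgk1, a glucocorticoid target, differed by 0.04 ± 0.23, and the 18 genes of that list had a median of 0.02, which ranged from -0.17 to 0.20 when arrays were left out.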
